A study of Gossypium hirsutum with 9 samples.

Results

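The cellulose synthase catalytic subunit (CESA) genes of upland cotton were described in elongating fibres at 9 days post anthesis. Members were all genes whose symbol was CESA followed by a number, which gave 44 of the 70478 genes listed. Fibres came from field-grown Gossypium hirsutum, either wild type (WT) or with GhWRKY16, a WRKY transcription factor gene, silenced by RNA interference (RNAi), and total RNA was sequenced. Values of 3 WT libraries and 5 RNAi libraries (replicates 2 to 6) were used, and RNAi replicate 1 was not analysed here. The labels state neither the promoter of the construct nor how many transgenic lines or plants stand behind a library, so the spread between libraries may be partly technical. No gene of the file carries the symbol WRKY16 (0 genes), so silencing of the target was not measured here.

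Cellulose is spun at the plasma membrane by rosette complexes, each built from several different CESA proteins that draw on UDP-glucose. In Arabidopsis, complexes of growing primary walls contain CESA1, CESA3 and a CESA6-like subunit (CESA2, CESA5, CESA6 or CESA9), whereas complexes of secondary walls contain CESA4, CESA7 and CESA8. A cotton fibre is a single seed-coat cell that first elongates with a thin primary wall and later deposits an almost pure cellulose secondary wall, and the shift between the CESA sets is a well known sign of that transition. The symbols were read here in the Arabidopsis sense, although the file does not say from which species each symbol was taken, and rice numbers its CESA genes differently.

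By symbol, 28 members were of the primary-wall kind (4 CESA1, 2 CESA2, 10 CESA3, 11 CESA6 and 1 CESA9) and 16 of the secondary-wall kind (6 CESA4, 6 CESA7 and 4 CESA8). No gene was called CESA5. Of the primary-wall members 18 reached at least 1 FPKM (fragments per kilobase of gene, scaled to library size) in at least 3 libraries and were tested, 4 were lower and 6 were listed at 0 throughout. Of the secondary-wall members 3 were tested, 8 were lower and 5 were listed at 0 throughout. The 9 members on unplaced scaffolds were all among those at 0. Gh_A10G0327 (CESA8) passed through RNAi libraries only. Gh_D10G0333 (CESA8), Gh_A08G0498 (CESA2) and Gh_A02G1066 (CESA3) also needed RNAi libraries to pass. Counts over the tested members are therefore descriptions.

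The libraries were not alike in depth or in wall genes. Relative depth, read from the steps of low values, ran from 0.366 in RNAi replicate 4 to 2.19 in RNAi replicate 5, taking WT replicate 1 as 1. The cotton fibre gene E6 summed to between 30949 and 39487 FPKM in every library. Of the other symbols of the fibre list, EXPA4 summed to between 6940 and 8248 FPKM, GL2 to between 65.9 and 107, and HDG11 to between 42.8 and 62.7. HOX3, also on that list, reached at most 0.914 FPKM in any library. Seed storage genes summed to at most 1.72 FPKM, and dividing-cell genes to between 285 and 310 in WT and between 250.3 and 347 in RNAi, nearly all of it in CYCB1-2. A photosynthesis list took the symbol PSAN and any symbol starting with RBCS, LHCB or CAB. It summed to between 111 and 126.8 FPKM in WT and between 112 and 138 in RNAi. That sum includes CAB39 (25.4 to 36.4 FPKM) and CABIN1, which match by letters only and are not symbols of chlorophyll-binding proteins. The genes of the list did not all lean one way. RBCS (2.02 to 4.40 FPKM in WT, 7.797 to 12.2 in RNAi) and CAB21 (2.84 to 5.10 and 5.29 to 13.8) were higher in every RNAi library, and PSAN (66.8 to 78.0 and 53.0 to 61.8) was lower. The sums of CAB6A, CAB8 and LHCB5 were also higher in every RNAi library, but reached at most 2.30, 1.82 and 2.87 FPKM. Of 17 tested genes of that list, CAB39 and CABIN1 genes included, 5 had an unadjusted limma p under 0.05, against 5.86% of all tested genes. The adjusted threshold was passed by 0 of the 17, against 0.167% of all tested genes. The part of the listed genes in the CESA differences was not tested. RNAi replicate 5 stood apart from the other 7 libraries in secondary-wall genes, and RNAi replicate 2 was highest for most primary-wall members, so values are given library by library and, where these libraries decide them, also without them. Fewer cells of a type and less RNA per cell cannot be told apart in such bulk samples.

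Primary-wall CESA genes made up nearly all CESA transcript in 7 of the 8 libraries. Their summed level was 337, 359 and 285 FPKM in WT replicates 1 to 3 and 508, 413, 376, 386 and 334 FPKM in RNAi replicates 2 to 6. RNAi replicate 2 was the highest library and WT replicate 3 the lowest, while RNAi replicate 6 lay within the WT range, so the groups overlapped. The WT mean was 327 ± 37.9 FPKM (SD, n = 3) and the RNAi mean 404 ± 65.1 FPKM (SD, n = 5).

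**Figure D1:**
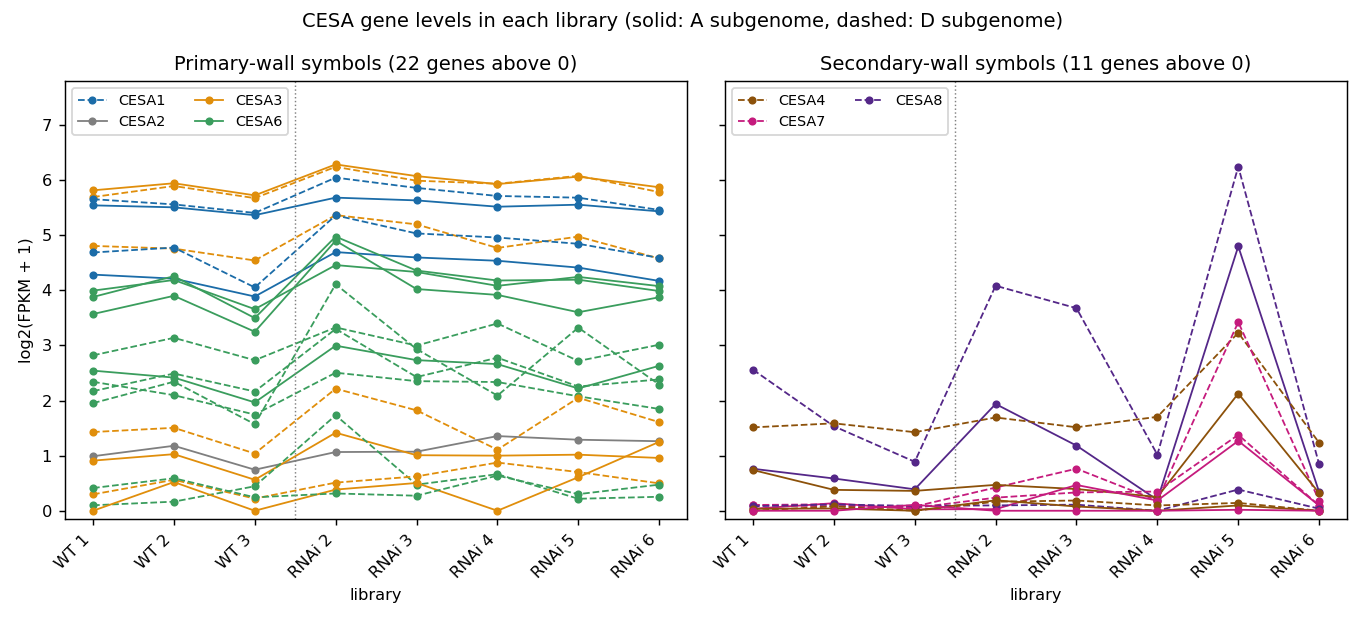
Level of each CESA gene listed above 0, as log2(FPKM + 1), in the 3 WT and 5 RNAi libraries, for 22 primary-wall members (left) and 11 secondary-wall members (right). Lines join the values of 1 gene and imply no order of libraries. RNAi replicate 2 is highest in 16 of the 18 tested primary-wall genes, whereas 8 of the 11 secondary-wall genes are highest in RNAi replicate 5.

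The composition of the primary-wall set varied little. CESA3 genes gave between 39.0% and 44.2% of its summed FPKM in each library, CESA1 genes between 35.5% and 41.1%, and CESA6 genes between 16.6% and 25.3%, the last highest in RNAi replicate 2. The single CESA2 gene detected, Gh_A08G0498, gave at most 0.419%. These are shares of transcript, and how they relate to subunits of the complex was not measured.

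CESA3, an obligatory subunit of the primary-wall complex in Arabidopsis, was carried mainly by 3 genes on chromosomes A08 and D08. Gh_A08G1305 (CESA3), the most abundant member, stood at 55.3, 60.6 and 51.9 FPKM in WT and at 77.1, 66.4, 59.9, 65.9 and 57.6 in RNAi replicates 2 to 6. RNAi replicates 4 and 6 lay below WT replicate 2, and the groups overlapped. Its log2 fold change, RNAi minus WT on log2(FPKM + 1), was 0.22 ± 0.12 (SE; limma adjusted p = 0.864). Gh_D08G1597 (CESA3) followed it closely, with WT values of 50.8, 58.5 and 50.1 FPKM and RNAi values of 74.7, 62.6, 60.2, 66.6 and 54.1 (limma adjusted p = 0.862). The A08 gene was above the D08 gene in all 3 WT libraries (means of 55.9 ± 4.38 and 53.1 ± 4.66, SD, n = 3) and below it in RNAi replicates 4 and 5. Gh_D08G0584 (CESA3) read 27.0, 26.1 and 22.3 FPKM across WT and 40.2, 35.7, 26.3, 30.5 and 22.9 across RNAi, with RNAi replicates 4 and 6 again inside the WT range (limma adjusted p = 0.877). Its neighbour in identifier, Gh_D08G0582 (CESA3), stayed at or below 0.834 FPKM.

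CESA1, the other obligatory primary-wall subunit, came from 4 genes, all on A05 and D05. Gh_D05G0077 (CESA1) had WT values of 49.4, 46.2 and 41.4 FPKM and RNAi values of 65.1, 57.1, 51.5, 50.4 and 43.0 (limma adjusted p = 0.877). Gh_A05G3967 (CESA1) was the steadiest of the abundant members, at 45.6, 44.5 and 40.2 FPKM in WT and 50.4, 48.6, 44.8, 46.0 and 42.2 in RNAi, a log2 fold change of 0.09 ± 0.10 (SE; limma adjusted p = 0.903). In both genes 1 or more RNAi libraries lay inside the WT range. Gh_A05G3959 (CESA1) had the higher difference of the A05 genes, at 18.5, 17.5 and 13.8 FPKM in WT and 24.9, 23.2, 22.2, 20.3 and 17.0 in RNAi. RNAi replicate 6 alone fell among the WT values, and the log2 fold change was 0.35 ± 0.15 (SE; unadjusted p = 0.0405, limma adjusted p = 0.840). Gh_D05G0084 (CESA1) averaged 22.3 ± 5.83 FPKM over WT (SD, n = 3) and 30.6 ± 6.26 over RNAi (SD, n = 5), with WT replicate 3 lowest at 15.6.

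CESA6-like genes, the interchangeable subunit of primary-wall complexes, were the most numerous and the most varied, 8 of 11 being tested. The abundant ones were on A chromosomes, namely Gh_A05G3694, Gh_A06G1017 and Gh_A11G3209, with means over all libraries of 17.7, 16.7 and 14.6 FPKM. Their D-subgenome namesakes on the same chromosome number were lower in every library. Gh_A06G1017 was between 3.68 and 6.11 times Gh_D06G1219, and Gh_A11G3209 between 2.41 and 3.49 times Gh_D11G2235. That such namesakes are homoeologs was not checked, since no sequences or positions were used here, and reads shared by near-identical copies may have been split between them.

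Gh_D05G2313 (CESA6), the D05 namesake of Gh_A05G3694, had the highest log2 fold change of the 18 tested primary-wall members. It stood at 2.87, 4.07 and 1.97 FPKM in WT and at 16.3, 6.65, 3.26, 9.01 and 3.89 in RNAi replicates 2 to 6. RNAi replicates 2, 5 and 3 lay above all WT libraries, and RNAi replicates 4 and 6 inside their range. The log2 fold change was 0.99 ± 0.42 (SE; unadjusted p = 0.0395, limma adjusted p = 0.840), and 0.70 without RNAi replicate 2. Its A05 namesake Gh_A05G3694 (CESA6) stood at 30.5 FPKM in RNAi replicate 2 and 17.3 in RNAi replicate 5. The ratio of the A05 to the D05 gene was therefore 4.45 to 5.22 in WT but 1.87 in RNAi replicate 2, 2.94 in RNAi replicate 3 and 1.92 in RNAi replicate 5, against 5.25 and 3.82 in RNAi replicates 4 and 6.

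No CESA gene passed the threshold between RNAi and WT. Of the 21 tested members 0 rose and 0 fell by limma at an adjusted p of 0.05, where 57 of all 34051 tested genes did so (0.167%; 0.0793% rose and 0.0881% fell). At an unadjusted p under 0.05 there were 2 of 21 members, Gh_A05G3959 (CESA1) and Gh_D05G2313 (CESA6), against 5.86% of all genes. The groups did not overlap in 0 of 21 members, against 4.07% of all genes. The log2 fold change was above 0 in all 18 tested primary-wall and all 3 tested secondary-wall members, against 46.4% of all genes. Its median was 0.28 over the primary-wall members and -0.02 over all genes. With no filter on level, the log2 fold change was above 0 in 31 of 33 members and below 0 in 2.

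The size of the common lean of the primary-wall members towards RNAi depended in part on RNAi replicate 2 and WT replicate 3. RNAi replicate 2 was the highest of the 8 libraries in 16 of 18 tested primary-wall members, against 19.8% of all tested genes, and WT replicate 3 was the lowest in 17 of 18, against 13.6%. The median log2 fold change of the 18 was 0.22 without RNAi replicate 2 and 0.18 without WT replicate 3, positive in 18 of 18 each time. RNAi replicates 2, 3 and 5 each lay above all 5 other libraries in 7 of the 18, against 4.47% of all tested genes, a set of libraries chosen after values were seen. Members share their libraries, so these counts are not independent of each other.

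**Figure D2:**
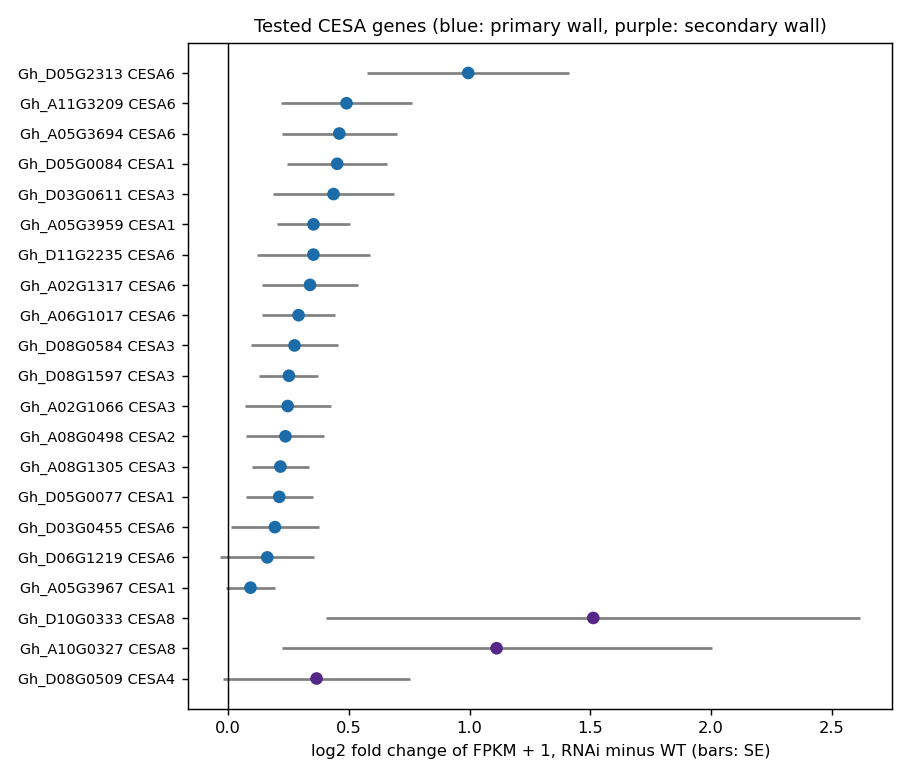
Log2 fold change (RNAi minus WT, log2(FPKM + 1) scale) of the 21 tested CESA genes, with SE bars from the limma fit of 3 WT and 5 RNAi libraries. The 18 primary-wall genes lie between 0.09 and 0.99, and the CESA8 genes have the largest values and the widest errors.

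Secondary-wall CESA genes were low in most libraries and high in RNAi replicate 5. Their summed level was 8.38, 5.11 and 3.38 FPKM in WT and 22.3, 16.8, 4.23, 127 and 2.95 FPKM in RNAi replicates 2 to 6. RNAi replicates 4 and 6 lay at the level of WT or below, RNAi replicates 2 and 3 above it, and RNAi replicate 5 far above all others. As a share of all CESA transcript this was 2.43%, 1.40% and 1.17% in WT and 4.20%, 3.91%, 1.11%, 24.7% and 0.877% in RNAi. The WT mean was 1.67 ± 0.669% (SD, n = 3), the RNAi mean 6.96 ± 10.04% (SD, n = 5), and the RNAi mean without replicate 5 was 2.53 ± 1.77% (SD, n = 4), so the difference was smaller than the spread between RNAi libraries.

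**Figure D3:**
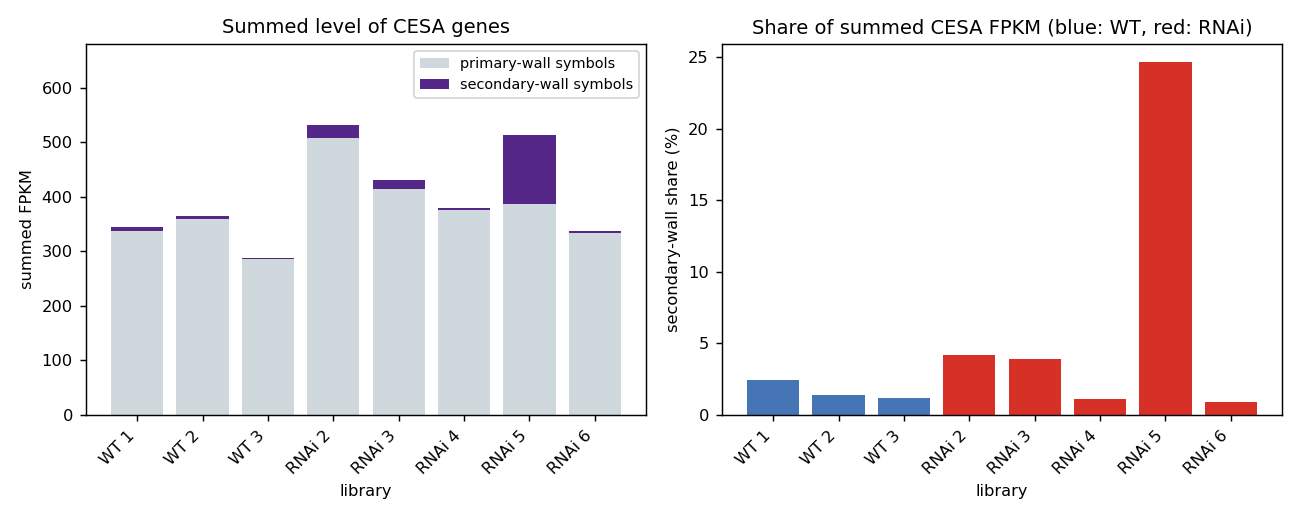
Left, summed FPKM of primary-wall (grey) and secondary-wall (purple) CESA genes in each library; right, the secondary-wall share of that sum in percent, WT in blue and RNAi in red. The share is 24.7% in RNAi replicate 5 and at most 4.20% in the other 7 libraries.

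CESA8 gave most of the secondary-wall sum in WT replicate 1 and in RNAi replicates 2, 3 and 5, but not in the remaining libraries. Gh_D10G0333 (CESA8) stood at 4.90, 1.90 and 0.852 FPKM in WT and at 15.96, 11.8, 1.02, 74.9 and 0.794 in RNAi replicates 2 to 6. In RNAi replicate 5 it exceeded every primary-wall member, Gh_D08G1597 (CESA3) at 66.6 FPKM included, and was 4.69 times the next library. RNAi replicate 6 had the lowest value of all 8 libraries, and the WT values lay inside the RNAi range. RNAi exceeded WT by a log2 fold change of 1.51 ± 1.11 (SE; limma adjusted p = 0.882), and 0.74 without RNAi replicate 5.

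Gh_A10G0327 (CESA8), the A10 namesake, had 0.696, 0.501 and 0.310 FPKM in WT and 2.83, 1.27, 0.146, 26.8 and 0.265 in RNAi. It followed the same libraries at a lower level, with the D10 gene 2.75 to 9.29 times higher in every library. It differed by a log2 fold change of 1.11 ± 0.89 (SE; limma adjusted p = 0.886), and 0.33 without RNAi replicate 5. The D gene was thus the more abundant of the CESA8 namesakes, opposite to the CESA6 namesakes above.

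CESA4 genes had a low but measurable level outside RNAi replicate 5 as well. Gh_D08G0509 (CESA4) stood at 1.86, 2.004 and 1.69 FPKM in WT and 2.23, 1.86, 2.26, 8.39 and 1.35 in RNAi. Without RNAi replicate 5 the groups were nearly level, at 1.85 ± 0.159 (SD, n = 3) and 1.93 ± 0.424 (SD, n = 4), and the log2 fold change moved from 0.37 ± 0.39 (SE; limma adjusted p = 0.903) to 0.028. Gh_A08G0421 (CESA4) lay between 0.189 and 0.669 FPKM in 7 libraries and at 3.37 in RNAi replicate 5.

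CESA7 genes, which encode an obligatory subunit of secondary-wall complexes, were too low for the test. Gh_D05G0079 (CESA7) stood at 0.0753, 0.0569 and 0.0545 FPKM in WT and 0.339, 0.698, 0.137, 9.73 and 0.135 in RNAi. All 5 RNAi libraries lay above all 3 WT libraries, RNAi replicate 5 being 14.0 times the next, but values near 0.1 FPKM rest on few reads and the absolute depth is unknown. The remaining CESA7 genes reached at most 1.60 FPKM (Gh_D07G0380, in RNAi replicate 5). By identifier, Gh_D05G0079 lies between the CESA1 genes Gh_D05G0077 and Gh_D05G0084, and Gh_A05G3965 (CESA7) between Gh_A05G3959 and Gh_A05G3967, so both subgenomes hold a low CESA7 gene among abundant CESA1 genes.

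The make-up of the secondary-wall set differed between libraries. CESA8 gave 84.7%, 78.0% and 80.5% of its summed FPKM in RNAi replicates 2, 3 and 5, between 36.2% and 67.5% in WT, and 27.6% and 36.7% in RNAi replicates 4 and 6. CESA4 gave 59.4% in RNAi replicate 4 and 9.41% in RNAi replicate 5. CESA7 gave 2.10% to 5.50% in WT and 2.42%, 7.95%, 12.9%, 10.1% and 9.15% in RNAi replicates 2 to 6, with no common order with the level of the set. In RNAi replicate 5 the symbol sums were 102 FPKM for CESA8, 12.8 for CESA7 and 11.9 for CESA4.

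Set against each other within libraries, the 3 tested secondary-wall members differed from the 18 tested primary-wall members in mean log2(FPKM + 1) by -1.89, -2.39 and -2.30 in WT and by -1.59, -1.68, -2.71, 1.06 and -2.74 in RNAi replicates 2 to 6. Over all members, genes below the filter included, the differences were -1.91, -2.10 and -1.88 in WT and -2.20, -1.97, -2.20, -0.9997 and -2.17 in RNAi. RNAi replicate 5 was the highest library on both readings, and its secondary-wall mean was above the primary-wall mean only among the tested members. RNAi replicates 4 and 6 lay below every WT library on both readings, whereas RNAi replicates 2 and 3 lay above every WT library among the tested members but below and within the WT range, respectively, over all members. Among the tested members the group means were -2.19 ± 0.263 (SD, n = 3) and -1.53 ± 1.55 (SD, n = 5), a difference of 0.66 that became 0.012 without RNAi replicate 5. Over all members the difference was 0.057, and it turned to -0.17 without RNAi replicate 5. RNAi replicate 5 was at least 2-fold above every other library in 8 of the 11 secondary-wall and 0 of the 22 primary-wall members listed above 0, against 1.74% of all genes listed above 0.

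Partners of cellulose synthesis were examined as a list of 70 genes by symbol, of which 30 were tested. None rose or fell (0 and 0), where 0.167% of all tested genes did either. The log2 fold change was positive in 17 and negative in 13, against 46.4% positive among all tested genes, and the median was 0.02. CTL1, a chitinase-like protein needed for cellulose assembly in Arabidopsis, was the most abundant. Gh_A10G0043 (CTL1) stood at 600.2, 640.3 and 479.6 FPKM in WT and 674, 659, 544, 709 and 638 in RNAi, and Gh_D10G0046 (CTL1) averaged 516 ± 86.8 over WT and 627 ± 58.7 over RNAi (SD, n = 3 and 5; limma adjusted p = 0.844). KOR, the KORRIGAN endoglucanase that acts with the complex, was led by Gh_A06G2111 at 146 ± 30.9 and 165 ± 14.1 FPKM (limma adjusted p = 0.882). Sucrose synthase is a source of UDP-glucose, and Gh_A07G2102 (SUS1) was named for its low p, not as typical of these genes. It stood at 16.8 ± 0.449 and 14.1 ± 1.60 FPKM (limma adjusted p = 0.864), with every RNAi library below every WT library. Such a separation, in either direction, was seen for 4.07% of the genes in the test. The 5 SUS1 genes together overlapped, summing to between 52.6 and 62.6 FPKM in WT and between 44.9 and 59.3 in RNAi. RNAi replicates 3 and 5, at 52.9 and 59.3 FPKM, lay inside the WT range of that sum.

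CTL2 and COBL4 genes of the same list, named after their values were seen, were highest in RNAi replicate 5. CTL2 is the secondary-wall relative of CTL1, and Gh_D09G0628 (CTL2) stood at 2.13, 0.696 and 0.888 FPKM in WT and 2.41, 3.70, 1.34, 44.2 and 0.808 in RNAi replicates 2 to 6. Gh_A09G0630 (CTL2) reached 31.2 FPKM in RNAi replicate 5 and at most 7.78 elsewhere. COBL4, a COBRA-like protein required for secondary-wall cellulose, summed over its 8 genes to 0.388, 0.184 and 0.347 FPKM in WT and to 6.12, 1.53, 0.329, 32.3 and 0.212 in RNAi. In each of these cases RNAi replicate 5 was far above all others. CTL1 in RNAi replicate 5, by contrast, was within 1.07 times the next library.

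**Figure D4:**
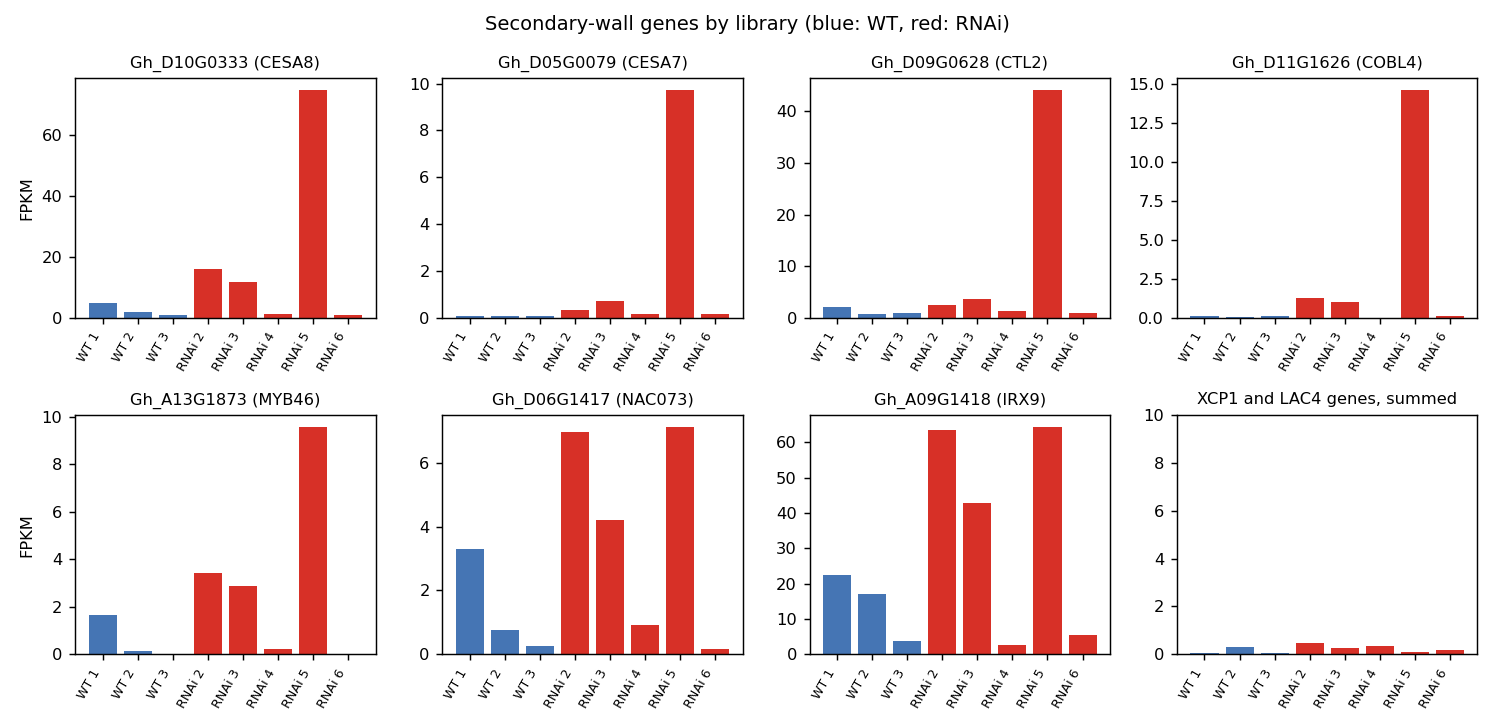
FPKM by library (WT blue, RNAi red, axes from 0) of CESA8, CESA7, CTL2, COBL4, MYB46, NAC073 and IRX9 genes, and of the XCP1 and LAC4 genes summed. The first 7 panels are highest in RNAi replicate 5, at 74.9 FPKM for CESA8 and 44.2 for CTL2, but IRX9 is nearly level between RNAi replicates 5 and 2. XCP1 and LAC4 stay under 1 FPKM in all libraries. IRX9, XCP1 and LAC4 are from the list of xylem and lignified cells, whose sum was highest in RNAi replicate 5 and next in RNAi replicate 2.

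Regulators of secondary-wall formation formed a list of 45 genes, 13 of them tested. Of these 0 rose and 0 fell, where 0.167% of all tested genes did either. The log2 fold change was positive in 10, against 46.4% of all tested genes, with a median of 0.28. The abundant ones overlapped between the groups but varied between libraries. Gh_D08G1910 (KNAT7, a homeodomain regulator of secondary walls) averaged 39.3 ± 10.3 FPKM over WT and 44.6 ± 4.60 over RNAi (limma adjusted p = 0.891), Gh_D03G0775 (NAC043, known as NST1) had 36.4 ± 3.33 and 33.0 ± 3.24 (limma adjusted p = 0.892), and Gh_A11G0363 (SND1) had 26.8 ± 6.28 and 32.8 ± 7.34 (limma adjusted p = 0.882). SND1 is also the symbol of an unrelated nuclease-domain protein, and which is meant is not known. Gh_A11G0363 ran from 19.6 FPKM in WT replicate 3 to 41.9 in RNAi replicate 2. Gh_D08G1910 ran from 27.6 in WT replicate 1 to 49.4 in RNAi replicate 2, and Gh_D03G0775 from 29.3 in RNAi replicate 6 to 39.8 in WT replicate 3. Gh_A08G1599 (KNAT7) had the lowest p of the list, at 8.96, 18.0 and 7.99 FPKM in WT and 31.9, 18.5, 19.0, 29.5 and 17.5 in RNAi, where RNAi replicate 6 lay under WT replicate 2 (unadjusted p = 0.00656, limma adjusted p = 0.597). Next was Gh_D03G1492 (KNAT7), at 1.01 ± 0.364 and 2.12 ± 1.61 FPKM (limma adjusted p = 0.880).

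Low regulators were not uniform. Gh_D03G1492 (KNAT7) had its lowest value, 0.715 FPKM, in RNAi replicate 5 and its highest, 4.70, in RNAi replicate 2. MYB46 and NAC073 are named after their values were seen. MYB46, a master switch of secondary-wall synthesis in Arabidopsis, was read from Gh_A13G1873 at 1.66, 0.149 and 0 FPKM in WT and 3.41, 2.86, 0.239, 9.59 and 0 in RNAi. NAC073, known as SND2, summed over 10 genes to 4.09, 1.25 and 0.920 FPKM in WT and to 9.48, 7.75, 0.929, 20.5 and 0.693 in RNAi. MYB46 and NAC073 were both highest in RNAi replicate 5, then in RNAi replicates 2 and 3, then in WT replicate 1, the order also seen for Gh_D10G0333 (CESA8).

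Secondary-wall CESA genes are also used by xylem cells, so genes of xylem and lignified cells are given beside them. Of 46 such genes 9 were tested, and 0 rose and 0 fell, where 0.167% of all tested genes did either. The list summed to between 136 and 189 FPKM in WT and between 149 and 282 in RNAi, highest in RNAi replicate 5 and next in RNAi replicate 2. Its xylan genes followed that order in part. The IRX9 genes summed to 89.5, 85.8 and 71.1 FPKM in WT and to 156, 127, 56.6, 160.4 and 66.9 in RNAi. Of the 2 IRX9 genes Gh_A09G1418, not named by the rules on level or p, stood at 22.5, 17.1 and 3.74 FPKM in WT and 63.6, 42.8, 2.51, 64.5 and 5.46 in RNAi. Its values in RNAi replicates 2 and 5 were nearly level. IRX15 was also highest in RNAi replicate 5, at 15.8 FPKM against at most 8.56 elsewhere, while IRX10 reached 51.2 FPKM there and 56.9 in RNAi replicate 2. The laccases and the protease did not share this peak. LAC17, a lignin laccase, summed over 19 genes to 49.7, 54.8 and 23.0 FPKM in WT and to 58.2, 71.3, 57.5, 53.9 and 52.0 in RNAi. XCP1, a protease of xylem vessels, summed to at most 0.268 FPKM in any library and to 0.0675 in RNAi replicate 5, where LAC4 was at 0.0204 and LAC11 at 0.169. The part of other cells in the CESA8 result was not tested.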

How the data were processed

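The authors deposited FPKM per gene, 1 column per library, per the file headers and file name. The submitters' processing notes list FastQC, HISAT2 and DESeq 1.10.1 but give no roles. The genome build, annotation, read counter and treatment of reads matching several copies were not given in the sources used here. Columns were matched to samples by group and replicate number. Absolute depth is unknown and counting intervals are left out; relative depth came from the whole-read steps of values under 0.5 FPKM. The reference table matched 0 identifiers, so no position or sequence is given, and chromosomes come from the identifiers themselves.

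The test took the 34051 genes that reached 1 FPKM in 3 or more libraries and used limma 3.58.1 (R 4.3.3) on log2(FPKM + 1) (eBayes with trend, two-sided, Benjamini-Hochberg over all of them, threshold 0.05). Differences on this scale understate changes of low genes. Simulated data with known changes were used to test the fit. Sums and means over members have no test. Shown in full were the 5 primary-wall and 4 secondary-wall members of highest mean, and members with an unadjusted p under 0.05. From the lists of partners and regulators came the 3 of highest mean and the 2 of lowest p. Members and lists were chosen with earlier results of these data known. Alternatives were each library left out, a pseudocount of 0.1, rescaling, other filters, a replicate block, no trend and array weights. The design named 9 samples, and 8 were fitted.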

Additional observations from a re-analysis of the deposited data

Results flagged for a closer look

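A library far from the other 4 of its group was found in 8 of 28 sets of RNAi values examined. For the secondary-wall genes it was RNAi replicate 5 each time, at 74.9 FPKM for Gh_D10G0333 (CESA8; next 15.96), 26.8 for Gh_A10G0327 (CESA8; next 2.83), 8.39 for Gh_D08G0509 (CESA4; next 2.26) and 9.73 for Gh_D05G0079 (CESA7; next 0.698). The same library stood apart in the summed level of the 3 tested secondary-wall genes, 110.1 FPKM (next 21.0), and in their share of the tested CESA transcript, 22.3% (next 3.996%). For primary-wall genes it was RNAi replicate 2, at 28.9 FPKM for Gh_A11G3209 (CESA6; next 15.3) and 1.67 for Gh_A02G1066 (CESA3; next 1.03). These values share libraries and are not independent.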

How the results depend on the processing

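No CESA gene passed in any alternative without a replicate block (lowest limma adjusted p 0.615, with array weights), and 21 of 21 stayed positive with single libraries left out, other scalings, a pseudocount of 0.1, no trend or array weights. Without RNAi replicates 4 and 5 together, an alternative chosen after seeing the data, Gh_D08G0509 (CESA4) changed sign to -0.028. With the replicate block 2 members passed, Gh_D10G0333 (CESA8; 2.67, limma adjusted p = 0.00622) and Gh_D05G2313 (CESA6; 1.57, limma adjusted p = 0.0335). That block rests on replicates 2 and 3 only and leaves WT replicate 1 and RNAi replicates 4 to 6 out of the comparison. The numbers are not known to pair samples, since deviations of same-numbered libraries correlated at 0.35 and -0.093 across genes. Of all genes 57 passed, 313 with the block, 88 with array weights, 36 with a filter of 5 FPKM, 34 without RNAi replicates 4 and 5, and between 33 (without WT replicate 2 or 3) and 58 with single libraries left out, with 37 without RNAi replicate 2 and 34 without RNAi replicate 5. The causes were not tested. With single libraries left out the difference in mean log2(FPKM + 1) was 0.22 to 0.43 for primary-wall genes and 0.37 (without RNAi replicate 5) to 1.36 for secondary-wall genes. Among the tested members the difference between both was 0.012 to 0.96 and that of the secondary-wall share 0.821 to 6.20 percentage points, both lowest without RNAi replicate 5. Over all members the difference between both was -0.17 without RNAi replicate 5. Over all members of a class, those below the filter included, the difference was 0.25 for primary-wall and 0.31 for secondary-wall genes. Rescaling moved the median of all genes by less than 0.1. RNAi replicate 4, the shallowest library, reads low genes least well.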
